A study of Mus musculus with 8 samples.

Results

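Interleukins are secreted messengers of the immune system, and the genes described here are those that encode them, their receptor chains and their binding proteins. They were taken from the array by name: every probe that is no control and whose RefSeq accession belongs to a mouse gene symbol beginning with Il and a digit. That gave 96 of 55681 distinct probes and 81 of the 20145 gene symbols that could be named on the array. The symbols also cover Il4i1, which encodes an amino acid oxidase, and Il1bos, a noncoding RNA. The genes Il11ra2, Il4i1b and Il12b were not analysed here.

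RNA from 3 samples of whole wildtype ovary was set against RNA from 5 ovarian neoplasms, each hybridised in 1 colour (Cy3) to its own array. The neoplasms came from mice with 1 Pgrcre allele and 1 allele of the progesterone receptor held behind a loxP-stop-loxP cassette. The sample labels write the genotype as Pgrcre/+mPgrLsL/+ and the series design as Pgrcre/+PgrBLsL/+, where B is a receptor isoform. All mice were 33 weeks old and cycling. The wildtype mice carried neither allele, so the Cre allele goes with the neoplasia group, and Cre from the Pgr locus acts wherever that locus is or was active, inside the ovary and outside it. Both groups are whole organs or masses, so a lower signal from fewer cells of a type and one from less RNA per cell cannot be told apart. No label says that each sample is a separate animal, so a p-value here reflects how far these samples scatter, which may be technical.

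An interleukin acts by joining receptor chains at the surface of its target cell. IL-1 joins Il1r1 to Il1rap and signals through Myd88 and NF-kappaB, whereas Il1r2 binds IL-1 without signalling and so acts as a decoy. IL-6 joins Il6ra to Il6st (gp130) and signals through Jak kinases and Stat3, and IL-17A and IL-17F act on a pair of Il17ra with Il17rc. In the ovary, IL-1, IL-6 and IL-18 are known around ovulation, when the follicle wall passes through a local inflammation.

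The promoters of 3 genes are shown because these genes hold a searched word and stand at the ends of the results below: Il1r2 had the greatest measured rise, Il17rc rose with its partner chain, and Il18 fell in every setting tried. Each sequence runs 5′ to 3′ from 250 bases before to 50 bases after the gene's start, from RefSeq on GRCm38.p6. They lie at chr1:40085843-40086142 (+ strand), chr6:113471205-113471504 (+ strand) and chr9:50554450-50554749 (+ strand). Capitals mark the word found: TTCNNNGAA, the STAT palindrome, in Il1r2; GGGNNTTTCC, a kappaB word, on the opposite strand in Il17rc; and TGTTCT, the progesterone receptor half-site, on the opposite strand in Il18.
Il1r2 promoter: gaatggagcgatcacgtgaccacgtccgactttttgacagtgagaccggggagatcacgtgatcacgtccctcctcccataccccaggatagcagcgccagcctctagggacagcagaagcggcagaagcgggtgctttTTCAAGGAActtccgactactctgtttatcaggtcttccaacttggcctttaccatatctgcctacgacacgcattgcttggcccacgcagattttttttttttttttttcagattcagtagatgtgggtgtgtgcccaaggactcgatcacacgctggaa
Il17rc promoter: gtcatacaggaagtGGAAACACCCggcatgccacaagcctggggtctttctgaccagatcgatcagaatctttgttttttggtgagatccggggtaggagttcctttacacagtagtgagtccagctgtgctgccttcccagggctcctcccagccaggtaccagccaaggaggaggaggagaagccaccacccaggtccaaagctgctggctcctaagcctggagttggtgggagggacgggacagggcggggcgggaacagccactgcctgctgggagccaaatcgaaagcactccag
Il18 promoter: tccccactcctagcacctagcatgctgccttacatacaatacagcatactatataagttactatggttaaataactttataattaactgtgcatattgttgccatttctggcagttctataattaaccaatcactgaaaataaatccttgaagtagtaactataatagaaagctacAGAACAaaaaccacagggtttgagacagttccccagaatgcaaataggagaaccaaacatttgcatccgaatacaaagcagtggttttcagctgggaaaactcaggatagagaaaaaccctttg
The words were searched on both strands, and each of these 3 windows holds 1 match. Of 46 genes tested, 35 had a promoter sequence, with 45 windows in all. The STAT palindrome stood in 6 of those 45 windows (Il1r2, Il18r1, Il1f9, Il12rb2, Il17d and Il7r) and in 8.30% of 32851 windows of all genes. The kappaB word stood in 4 of 45 (Il6, Il16, Il17rc and Il4ra) against 1.63% of all windows, and the half-site in 6 of 45 against 19.0%. A match describes letters only.

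Signals are given as log2 of the processed signal minus the array's 75th percentile, so a value of 0 equals that percentile, and levels are compared between arrays of 1 probe, never between probes. A probe was tested where the scanner called it well above background on at least 3 of 8 arrays, and each gene is shown by 1 probe. Of the 81 genes, 46 were tested. The test was limma's moderated test with Benjamini-Hochberg adjustment over all 25216 features tested, and a gene is called higher or lower in neoplasia at an adjusted p under 0.05.

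The interleukin genes as a group changed about as often as the rest of the array, with 11 of 46 higher and 4 lower, or 32.6% against 30.4% of all features. By direction, 17.0% of all features were higher and 13.4% lower, against 23.9% and 8.70% of the interleukin genes. The median difference was 0.59 for the 46 genes and 0.14 for all features. In 13 genes every neoplasia array lay above every wildtype array and in 4 every one lay below, and over the array those shares were 23.1% and 15.9% (39.1% together). Il1f9 and Il17rb are among these genes, and each passed the filter through 1 group alone. Il1b, Il1r2 and Il5ra are among them too. Each was above background on 1 wildtype array and reached the 3 arrays of the filter only with neoplasia arrays. In the genes named here the parting of the groups is thus no further support. Receptor chains made up most of the calls: 9 of 31 tested receptors were higher and 3 lower, whereas 2 of 13 tested ligands were higher and 1 lower. That difference between ligands and receptors was not tested. With spike-in scaling 4 genes were higher and 6 lower, and with the deposited log2 values 7 and 5, while no called gene changed sign under any scaling. Without wildtype 2 the counts were 6 higher and 2 lower, without wildtype 1 they were 8 and 2, and without neoplasia 5 they were 12 and 7.

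**Figure D1:**
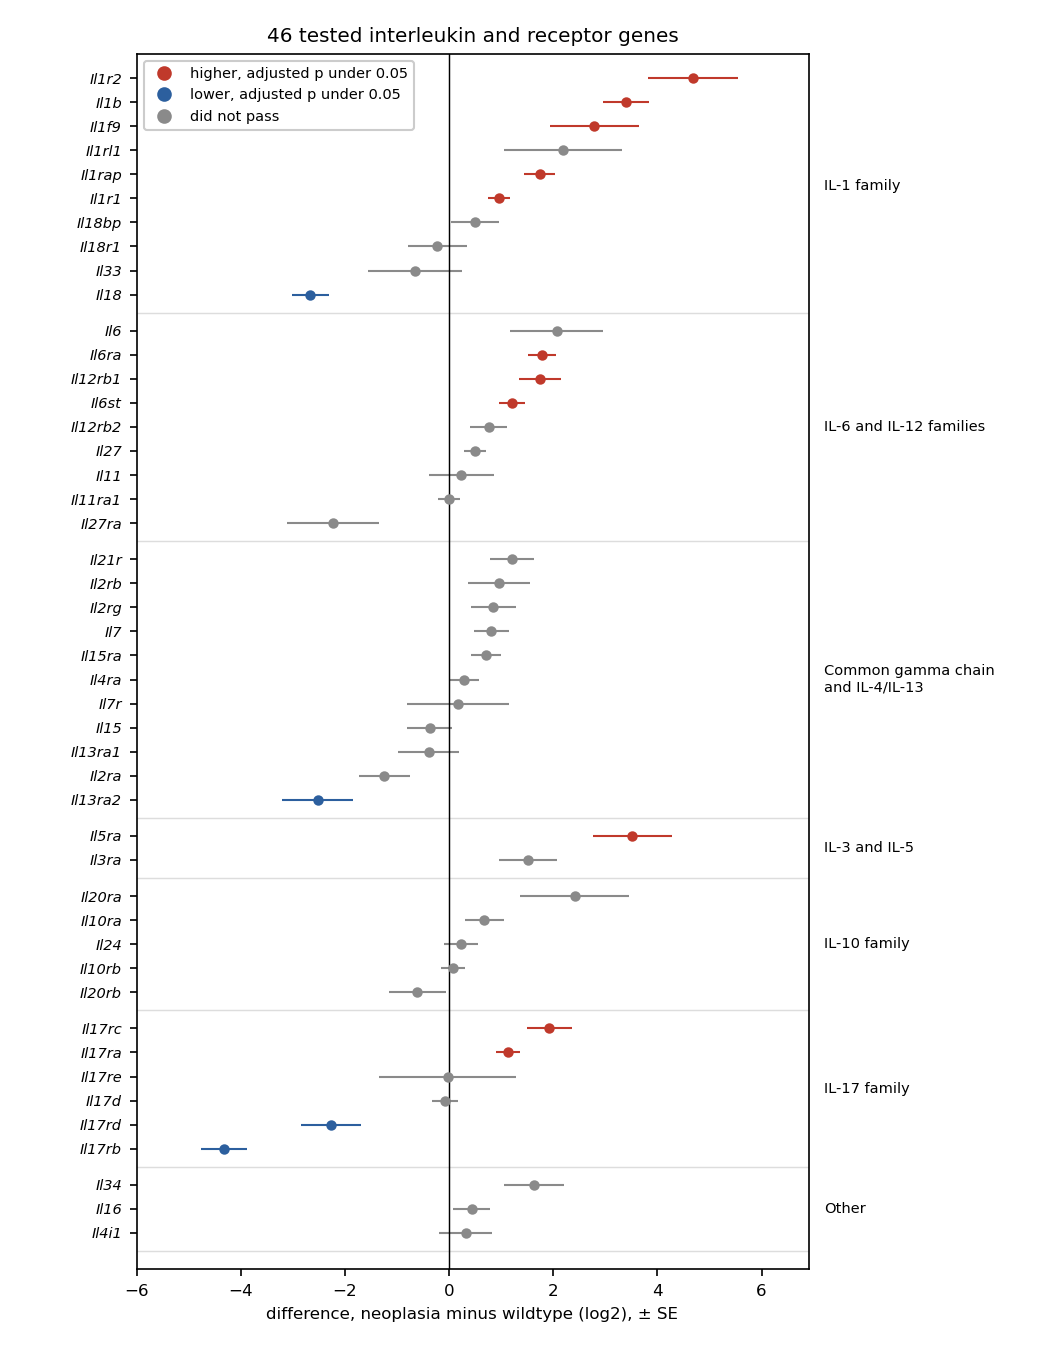
Difference between neoplasia and wildtype (log2, horizontal axis) with its standard error for the 46 tested genes, grouped by cytokine family; red points are higher, blue points lower and grey points did not pass. The IL-1 family holds 5 of the 11 higher genes, and the IL-17 receptors hold the gene lowest in neoplasia, Il17rb at -4.33.

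The position of an array on the slide bears on every difference here. All 8 arrays were on 1 slide and in 1 scan, with neoplasia 1 to 4 in row 1 and neoplasia 5 with the 3 wildtype arrays in row 2. With the row as a block, 2 interleukin genes were higher and 2 lower, and Il1b, Il18 and Il17rb were the calls kept. The other higher gene was Il11, at 2.28, which was not called without the block. With row 2 alone, where the 1 neoplasia array is assumed to vary like the wildtype arrays, 11 were higher and 2 lower, and 6 of the 15 calls were kept. All 15 called genes had the same sign in row 2 alone. With 1 neoplasia array in that row, row and neoplasm cannot be told apart.

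The IL-1 family held the greatest number of calls: 5 of its 10 tested genes were higher and 1 was lower, with a median difference of 1.35. That is 60% called, against 30.4% of all features, and the difference in share was not tested. Il1b and Il1r2 were above background on 1 wildtype array each and Il1f9 on none. These genes reached the 3 arrays of the filter only through neoplasia, which can raise the share called. Il1b encodes IL-1 beta, the main secreted IL-1. It stood at -5.48, -5.09 and -4.85 in wildtype and at -1.71, -0.51, -2.24, -2.60 and -1.64 in neoplasia. All 5 neoplasms lay more than 2 log2 units above the highest ovary. The scanner found the probe above background in all 5 neoplasms but in 1 ovary of 3. The size of the rise thus rests on dim wildtype signals. The difference was 3.40 ± 0.44 (SE; 3 against 5 arrays; adjusted p = 0.00155), or 10.6-fold. It was 3.50 in slide row 2 alone (adjusted p = 0.010), and 1.60 with normexp background correction. Il1a, the other agonist IL-1, was above background on 1 wildtype array and on no neoplasia array, and was not tested.

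Il1r2, the decoy receptor, had the greatest measured rise of the 46 genes. Its values were -4.83, -4.40 and -5.58 in wildtype, against 2.54, -1.73, -0.41, -0.80 and -0.85 in neoplasia. Neoplasia 1 lay furthest above the ovaries, and the groups did not overlap. The probe was above background in all 5 neoplasms but in 1 ovary of 3, so the size of the rise rests on dim wildtype signals. The measured difference was 4.69 ± 0.87 (SE; adjusted p = 0.00691), or 25.8-fold, and 2.61 with normexp correction. With the slide row as a block the call was lost (adjusted p = 0.148), while row 2 alone gave 4.08 (adjusted p = 0.0171).

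Both chains of the signalling IL-1 receptor were called higher too, each by 1 probe. Il1rap, the shared accessory chain, stood at -3.76, -3.64 and -4.12 in wildtype and at -1.45, -2.65, -1.80, -2.28 and -2.31 in neoplasia. Every neoplasm was above every ovary, by 1.74 ± 0.30 on average (SE; adjusted p = 0.00489), or 3.34-fold. The other probe of Il1rap, assigned to another transcript, was above background on no array and was not tested, so the rise rests on 1 probe. The Il1rap call was lost with the slide row as a block (adjusted p = 0.110) and with spike-in scaling, at 1.13 (0.193), and the difference was 0.96 with normexp correction. Il1r1, the ligand-binding chain, stood at 0.79, 0.43 and 0.89 in wildtype and at 1.62, 2.01, 1.71, 1.36 and 1.63 in neoplasia. The neoplasms lay close together and above all ovaries, with a difference of 0.96 ± 0.21 (SE; adjusted p = 0.0132). That call was lost without wildtype 1 (adjusted p = 0.0537) or wildtype 2 (0.0670), and with spike-in scaling (0.35, adjusted p = 0.721) and the deposited values (0.48, adjusted p = 0.176).

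Il18 encodes IL-18, an inflammasome-released member of the same family that acts on T and NK cells, and it fell. Its values were 1.36, 1.01 and 1.43 in wildtype and -1.72, -1.10, -1.74, -1.97 and -0.45 in neoplasia. The ovaries were all above 1 and the neoplasms all below 0. The difference was -2.66 ± 0.36 (SE; adjusted p = 0.00175), or 6.34-fold lower, and -1.72 in slide row 2 alone (adjusted p = 0.0218). Il18 and Il1b were the 2 genes that kept their call under every alternative run. The IL-18 receptor chain Il18r1 and the inhibitor Il18bp did not pass, at -0.23 ± 0.57 and 0.50 ± 0.47 (SE). Il18rap, the receptor's accessory chain, was above background on 1 neoplasia array and was not tested.

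Il1f9, which encodes the epithelial cytokine IL-36 gamma, was above background on no wildtype array and on 3 of 5 neoplasia arrays. It thus passed the filter through neoplasia alone. Its values were -7.37, -7.33 and -7.50 in wildtype and -5.20, -6.99, -4.44, -2.46 and -3.95 in neoplasia. Neoplasia 4 was highest, and neoplasia 2 lay next to the ovaries. Against the lowest signal that the scanner called above background, the rise was at least 1.73-fold (adjusted p = 0.0401 for the measured difference of 2.79 ± 0.86, SE). Such a bound is used below for each gene that no array of a group measured. The Il1f9 call was lost when any array but neoplasia 2 was left out, with adjusted p from 0.0531 to 0.117. The summed signal of 8 epithelial markers was 12.6 to 70.6 in wildtype and 180 to 773 in neoplasia, where 1 equals the 75th percentile. Of those markers 2 were higher (Krt8 by 4.01 and Krt18 by 3.52) and 2 lower, Epcam among them at -3.76. Their part in the Il1f9 result was not tested.

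Il1rl1, the receptor of IL-33, split the neoplasms. It stood at -1.20, -1.19 and -2.57 in wildtype, and at -1.27, -1.79, 3.13, 2.22 and 0.39 in neoplasia. Neoplasia 3, 4 and 5 were above all ovaries, and neoplasia 1 and 2 lay within the wildtype range. The mean difference of 2.19 ± 1.13 (SE) did not pass (adjusted p = 0.166). The gene has 2 other probes, and both were above background on no wildtype array: one in neoplasia 3, 4 and 5, at -0.35, -1.31 and -3.18, and the other in neoplasia 3 and 4, at -2.49 and -3.14. Il33 itself, an alarmin released by damaged cells, was highest in neoplasia 5 at 0.72, against -3.01 to -1.18 in the other neoplasms and -2.35 to -0.20 in the ovaries. Its mean difference was -0.66 ± 0.90 (SE; adjusted p = 0.597).

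Il1r2, Il1r1, Il1rl2, Il1rl1, Il18r1 and Il18rap are neighbours on chromosome 1, in that order. Along this run the differences were 4.69, 0.96, untested, 2.19, -0.23 and untested, so the first 2 genes were called higher, and Il1rl1 and Il18r1 were not. The IL-1 inhibitor Il1rn was above background on 2 neoplasia arrays, at -2.38 in neoplasia 2 and -3.43 in neoplasia 5, and on no wildtype array.

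**Figure D2:**
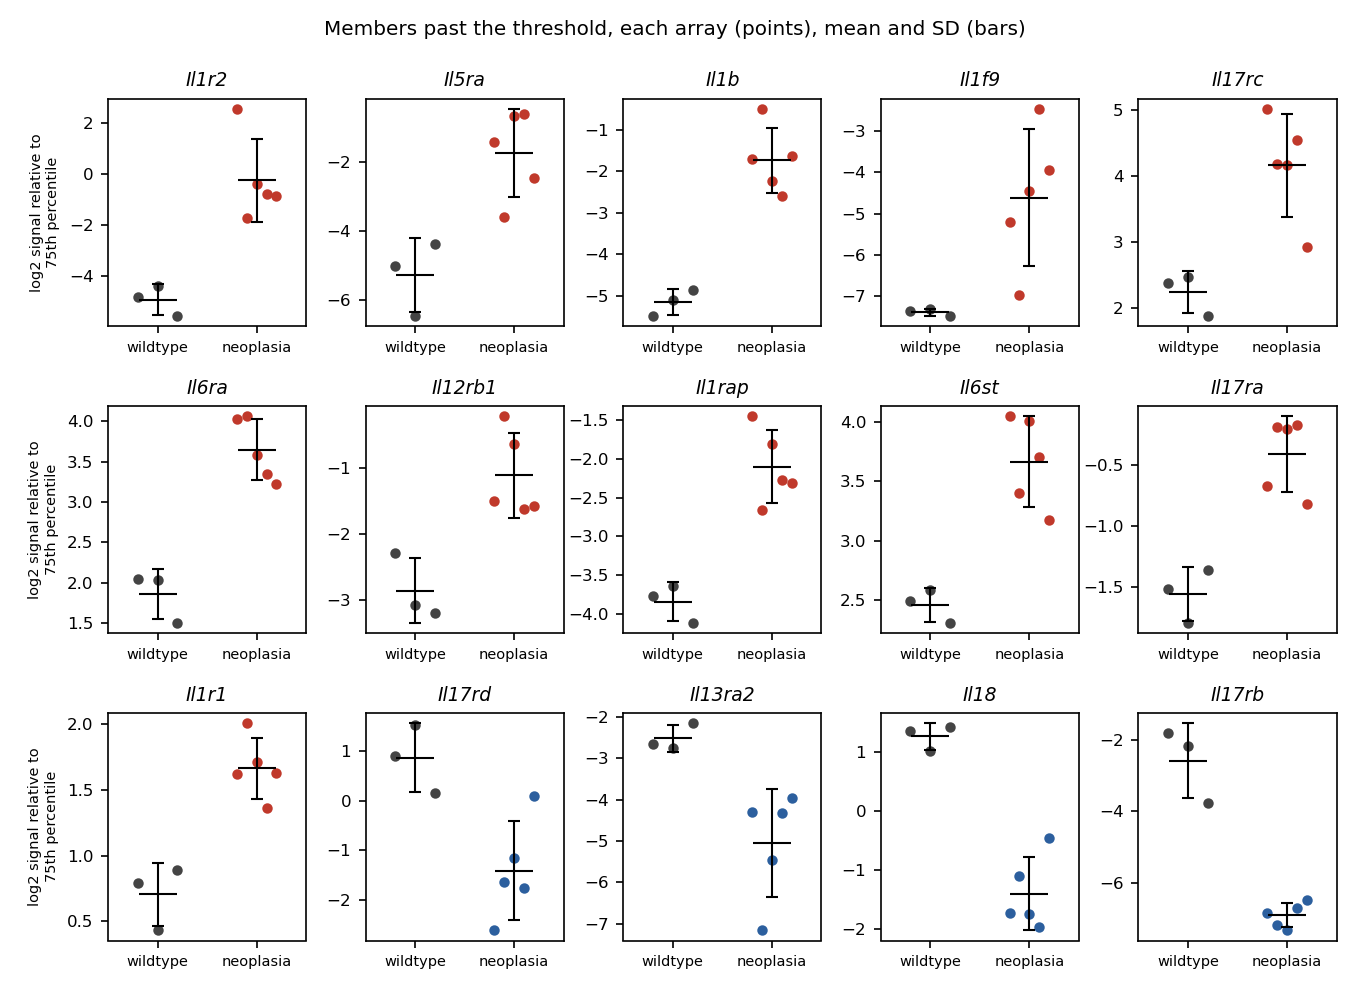
Signal of the 15 interleukin genes past the threshold on each array (log2 relative to the array's 75th percentile), with one panel per gene, its own axis, and the mean and SD of 3 wildtype and 5 neoplasia arrays as bars. In all 15 panels the 2 groups do not overlap, but the genes were picked by the test, so this is no further support. Over all features 39.1% did not overlap. Neoplasia 1 stands out in Il1r2 at 2.54.

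In the IL-6 and IL-12 families 3 of 9 tested genes were higher and none was lower. At 33.3% called, this was close to the 30.4% of all features. Both chains of the IL-6 receptor rose. Il6ra, which binds IL-6, stood at 2.05, 2.03 and 1.498 in wildtype and at 4.02, 4.06, 3.58, 3.35 and 3.23 in neoplasia. The lowest neoplasm was above the highest ovary by more than 1 unit. The difference was 1.79 ± 0.27 (SE; adjusted p = 0.00299), or 3.46-fold. Il6st, the signalling chain gp130, stood at 2.49, 2.58 and 2.30 in wildtype and at 4.05, 3.40, 4.01, 3.71 and 3.17 in neoplasia. Again no neoplasm overlapped the ovaries, and neoplasia 5 came nearest to them. The difference was 1.21 ± 0.25 (SE; adjusted p = 0.0106). In slide row 2 alone the 2 genes gave 1.37 (adjusted p = 0.0510) and 0.72 (0.0848). With spike-in scaling they gave 1.18 (0.168) and 0.60 (0.523).

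The ligand Il6 varied from neoplasm to neoplasm. Its values were -4.89, -4.50 and -4.38 in wildtype and -3.08, -0.07, -3.68, -4.29 and -1.52 in neoplasia. All 5 neoplasms were above all ovaries, but neoplasia 4 only just, whereas neoplasia 2 was more than 4 units higher. The difference of 2.06 ± 0.88 (SE) did not pass (adjusted p = 0.107). Il11, a gp130 ligand known from the endometrium, was highest in neoplasia 5 at -1.61, against -4.47 to -3.64 in the other neoplasms and -4.06 to -3.75 in the ovaries. Over all arrays it differed by 0.24 ± 0.62 (SE; adjusted p = 0.791), and its receptor chain Il11ra1 by -0.0011 (adjusted p = 0.997). In slide row 2 alone, where neoplasia 5 is the neoplasia array, Il11 was at 2.28.

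Il12rb1, the chain shared by the IL-12 and IL-23 receptors, was higher by 1.74 ± 0.40 (SE; adjusted p = 0.0155). It stood at -2.29, -3.07 and -3.20 in wildtype and at -1.50, -0.22, -0.64, -1.62 and -1.58 in neoplasia. Neoplasia 2 was highest, and the groups did not overlap. The other probe of Il12rb1 gave 0.76 (adjusted p = 0.0989), and the call was lost without wildtype 2 (0.0662) or wildtype 3 (0.0600). It was also lost with spike-in scaling, at 1.14 (adjusted p = 0.170), with the deposited values, at 1.02 (0.107), and in slide row 2 alone, at 1.28 (0.116). Il12rb2, its partner in the IL-12 receptor, was at 0.76 ± 0.35 (SE; adjusted p = 0.131). Il27ra, the IL-27 receptor, stood at -1.93, -2.77 and -2.28 in wildtype and at -4.31, -3.20, -6.06, -6.53 and -2.67 in neoplasia. Neoplasia 5 fell inside the wildtype range, and the mean difference of -2.22 ± 0.89 (SE) did not pass (adjusted p = 0.0884). Of the IL-12 family ligands, Il12a and Il23a were above background on no array, and Il27 was at 0.50 ± 0.20 (SE; adjusted p = 0.0973).

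The IL-17 receptors moved both ways: of 5 receptor chains 2 were higher, 2 were lower and Il17re, the IL-17C receptor chain, did not pass. That is 80% called, against 30.4% of all features, and the difference in share was not tested. Il17rb, 1 of the 2 lower chains, passed the filter through wildtype alone. Il17ra, the chain shared by several IL-17 receptors, stood at -1.51, -1.79 and -1.36 in wildtype and at -0.67, -0.19, -0.21, -0.18 and -0.82 in neoplasia. All neoplasms were above all ovaries, by 1.14 ± 0.23 on average (SE; adjusted p = 0.00984). Its partner Il17rc stood at 2.37, 2.47 and 1.87 in wildtype and at 5.01, 4.18, 4.16, 4.54 and 2.91 in neoplasia. Neoplasia 5 was the lowest of the neoplasms and still above the ovaries. The difference was 1.93 ± 0.44 (SE; adjusted p = 0.0150), or 3.80-fold, and the other probe of Il17rc gave 1.93 as well (adjusted p = 0.00888). In slide row 2 alone the differences were 0.73 for Il17ra (adjusted p = 0.114) and 0.68 for Il17rc (0.196). The Il17ra call was lost without wildtype 2 (adjusted p = 0.0524), and that of Il17rc without wildtype 1 (0.0549) or wildtype 3 (0.0584). With spike-in scaling Il17ra was at 0.53 (adjusted p = 0.542) and Il17rc at 1.32 (0.191), and with the deposited values Il17ra was at 0.66 (0.0891).

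Il17rb, the chain that binds IL-25, was not above background in any neoplasm. It stood at -1.81, -2.16 and -3.78 in wildtype and at -6.83, -7.18, -7.33, -6.71 and -6.48 in neoplasia. It was above background in all 3 ovaries and passed the filter through them alone. The complete parting of the groups is therefore no further support. Il17rb was at least 4.68-fold lower (adjusted p = 0.000468 for the measured difference of -4.33 ± 0.44, SE), and kept its call with the slide row as a block (adjusted p = 0.0241). In row 2 alone the adjusted p was 0.0505, and the measured difference with normexp correction was -0.94. Il17rd, a receptor-like protein also known to restrain FGF signalling, stood at 0.90, 1.52 and 0.14 in wildtype and at -2.60, -1.64, -1.15, -1.75 and 0.10 in neoplasia. Neoplasia 5 lay just under the lowest ovary and the other 4 far below. The difference was -2.26 ± 0.58 (SE; adjusted p = 0.0227), but -0.76 in row 2 alone (adjusted p = 0.397), and the call was lost without wildtype 1 (0.0822) or wildtype 2 (0.0917).

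Il17re and Il17rc are neighbours on chromosome 6, with differences of -0.03 and 1.93. Il17re ranged from -4.67 in neoplasia 3 to 1.41 in neoplasia 1, a span of 6.08. Of the 6 IL-17 ligands, Il17d alone was tested, at -0.08 ± 0.25 (SE; adjusted p = 0.829). Il17a, Il17b, Il17c and Il25 were above background on no array, and Il17f on 1 wildtype array.

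Among the receptors that use the common gamma chain or bind IL-4 and IL-13, 1 of 9 tested genes was called. Neither of the tested ligands, Il7 and Il15, was called. For the receptors that is 11.1%, against 30.4% of all features, and the difference in share was not tested. Il13ra2, the decoy receptor of IL-13, stood at -2.66, -2.74 and -2.16 in wildtype and at -4.31, -7.16, -5.47, -4.33 and -3.95 in neoplasia. All neoplasms were below all ovaries, and 3 of 5 were above background. The difference was -2.52 ± 0.69 (SE; adjusted p = 0.0282), or 5.75-fold lower. It was -1.44 in slide row 2 alone and -0.63 with normexp correction. The call was lost without any 1 of the 3 wildtype arrays or neoplasia 3, with adjusted p from 0.0555 to 0.0884. Il13ra1, the signalling IL-13 chain, did not pass at -0.39 ± 0.58 (SE), with neoplasia 5 highest at -0.86. The 2 tested probes of Il4ra, the IL-4 receptor, gave unlike results: 0.29 (adjusted p = 0.447) for the probe that stands for the gene and 0.91 (adjusted p = 0.00788) for the other. The common gamma chain Il2rg was at 0.85 ± 0.44 (SE; adjusted p = 0.164), and the IL-15 receptor Il15ra at 0.71 ± 0.29 (SE; adjusted p = 0.0937). The ligands Il2, Il4 and Il13 were above background on no array.

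Il5ra, the IL-5 receptor found on eosinophils and some B cells, was the other receptor with a large rise. It stood at -5.01, -6.45 and -4.36 in wildtype and at -1.41, -3.59, -0.67, -0.62 and -2.48 in neoplasia. The groups did not overlap, and neoplasia 2 came nearest to the ovaries. The probe was above background in all 5 neoplasms but in 1 ovary of 3. As for Il1b and Il1r2, the size of the rise rests on dim wildtype signals. The difference was 3.52 ± 0.76 (SE; adjusted p = 0.0129), or 11.5-fold. It was 1.62 with normexp correction, and without wildtype 2 it was 2.93 and did not pass (adjusted p = 0.0572). In row 2 alone it was 2.80 (adjusted p = 0.101). Neither Il5 nor Il3 was above background on any array. Il3ra, the IL-3 receptor, was at 1.51 ± 0.56 (SE; adjusted p = 0.0714).

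No tested gene of the IL-10 family passed, at 0 of 5 against 30.4% of all features, a difference in share that was not tested. Its members ranged from Il20ra, a chain of the IL-19 and IL-20 receptors, at 2.41 ± 1.04 (SE; adjusted p = 0.109), to Il20rb, its partner, at -0.61 ± 0.55 (SE). Il20ra ran from -5.38 in neoplasia 2 to 0.06 in neoplasia 4, against -5.65 to -4.24 in the ovaries. Il10 was above background in neoplasia 5 alone, with a processed signal of 68.9 against 3.7 to 11.6 on the other arrays. Il34, a ligand of the macrophage receptor Csf1r, stood at 0.66, 0.75 and 0.98 in wildtype and at 1.27, 4.18, 1.93, 2.66 and 2.09 in neoplasia. All neoplasms were above all ovaries and neoplasia 2 was highest, but the difference of 1.63 ± 0.58 (SE) did not pass (adjusted p = 0.0632).

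Of the 35 genes not tested, 23 were above background on no array, 3 on wildtype arrays alone and 8 on neoplasia arrays alone, most often on a single array. Il31ra had 1 array of each group.

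The neoplasms differed more among themselves than the ovaries did, in these genes as over the whole array. The SD was larger in neoplasia in 38 of the 46 genes, with medians of 0.76 and 0.32, against 0.47 and 0.20 over all features. The share of all features with a larger SD in neoplasia was not counted. Neoplasia 2 had the highest value of the 5 neoplasms in 13 of the 46 genes, and in 17.5% of all features. Those 13 include Il2rb, Il2rg, Il10ra, Il21r, Il16, Il18bp, Il6, Il34, Il1b and Il12rb1. Neoplasia 2 had the lowest value in 11 genes, among them Il1r2, Il1rap, Il1rl1 and Il5ra, and in 19.5% of all features. The summed signal of 10 T cell markers was 15.7 in neoplasia 2, against 3.54 to 7.53 in the other neoplasms and 3.54 to 4.72 in the ovaries. Neoplasia 2 was also the highest of the neoplasms in the summed macrophage markers, at 182 against 91.8 to 125. The same held in NK cell markers, at 1.25 against 0.36 to 0.82, and in dendritic cell markers, at 7.41 against 3.22 to 6.49. Such sums weigh the brightest probes most. Of 7 NK cell markers 4 were tested. Of 6 tested dendritic cell markers 1 was higher and 1 lower in neoplasia (17.0% and 13.4% over all features). Their median difference was -0.31. Neoplasia 2 did not lead in neutrophil markers (121, against 145 in neoplasia 3) or B cell markers (7.55, against 8.71 in neoplasia 5). Nor did it lead in mast cell markers, at 4.02 against 5.53 in neoplasia 4. The part of these cells in the interleukin values was not tested. Neoplasia 5 was highest in 11 genes, among them Il33, Il7r, Il11, Il13ra1 and Il15, and in 21.6% of all features. Neoplasia 4 was lowest in 16 of the 46 genes, and in 13.7% of all features.

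**Figure D3:**
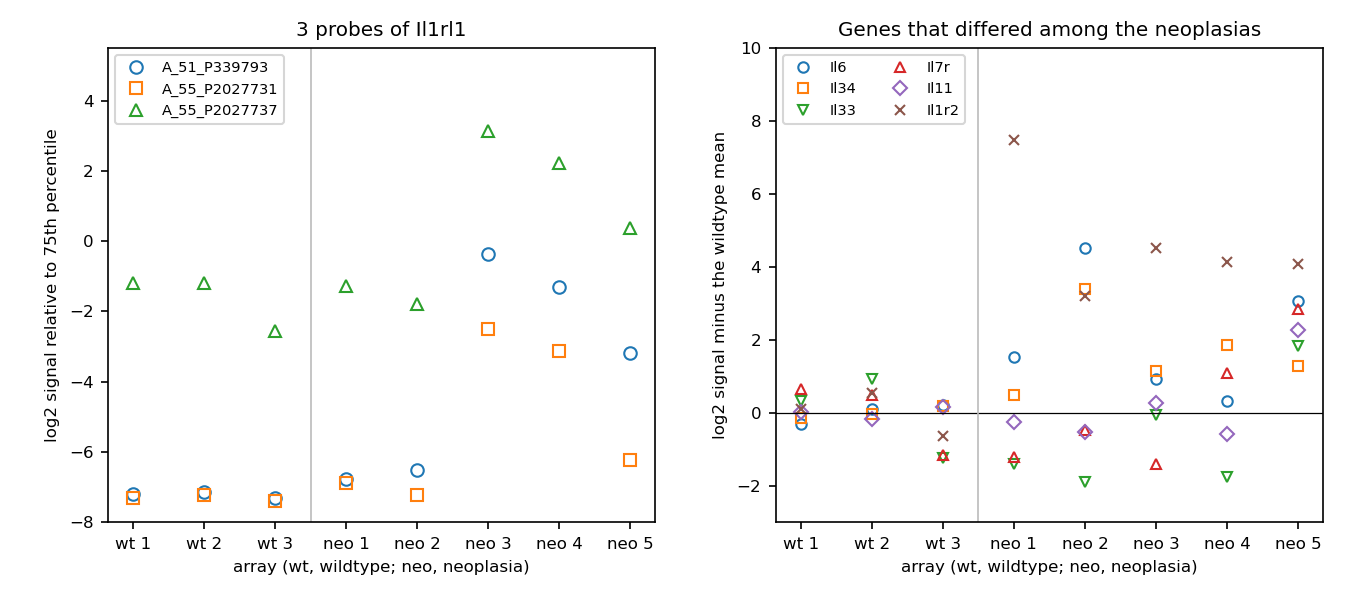
Left, the 3 probes of Il1rl1 on each array (log2 relative to the array's 75th percentile); right, 6 genes as log2 signal minus the mean of the 3 wildtype arrays. On all 3 Il1rl1 probes neoplasia 3 and 4 are highest, Il6 and Il34 peak in neoplasia 2, Il33, Il7r and Il11 in neoplasia 5, and Il1r2 in neoplasia 1.

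The partner chains and signalling genes without an Il symbol were followed in 3 lists. Of 17 tested genes for shared chains and IL-6 type cytokines, 7 were higher and 2 lower (52.9% called, against 30.4% of all features; median 1.08). With spike-in scaling 4 were higher and 2 lower, and with the slide row as a block 4 and 1. The gp130 partners Lifr and Osmr were higher by 3.09 ± 0.41 and 2.34 ± 0.29, and the ligand Clcf1 by 2.91 ± 0.31 (SE). Lif was above background in no ovary and at least 3.46-fold higher. Tslp, an epithelial cytokine that pairs Il7r with Crlf2, was at least 4.86-fold lower. Of 22 tested Jak, Stat and Socs genes, 3 were higher (Jak2, Stat6 and Stat3) and 3 lower (Cish, Stat5a and Jak1), or 27.3%, with a median of 0.52. Stat3 was higher by 0.76 ± 0.22 and Cish, a feedback gene of Stat5, lower by -3.06 ± 0.53 (SE). Without any 1 of the 3 wildtype arrays this list had 0 higher and 2 lower, without neoplasia 5 it had 5 and 3, without neoplasia 3 it had 2 and 2, and with the slide row as a block or with spike-in scaling none was higher. Of 31 tested genes for IL-1 receptor and NF-kappaB signalling, 8 were higher and 1 lower (29.0% called, close to the share of all features; median 0.59). With spike-in scaling 2 were higher and 1 lower, with the slide row as a block 3 and 0, and with the deposited log2 values 5 and 3. The adaptor Myd88 was higher by 1.00 ± 0.19, the subunit Rela by 1.08 ± 0.22, and the inhibitors Irak3 and Tnfaip3 by 2.80 ± 0.38 and 2.80 ± 0.34 (SE).

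Known response genes were counted in the same way, though many other signals also act on them. These lists were chosen with earlier results of these data known, so their counts are no independent support. Over all features 30.4% were called, with 17.0% higher and 13.4% lower. Of 18 tested genes that respond to IL-6 and Stat3, 14 were higher and none lower (77.8% called; median 2.11). Lcn2, an iron-binding acute phase protein, was higher by 8.99 ± 1.12, the transcription factor Cebpd by 3.33 ± 0.33, and the fibrinogen chain Fgb at least 990-fold. Socs3, the feedback inhibitor of gp130, was at 0.76 ± 0.39 (SE) and did not pass (adjusted p = 0.163), nor did Saa1, Saa2 or Saa3. Of 14 tested genes that respond to IL-1 and IL-17, 7 were higher and none lower (50% called; median 1.495). The collagenase Mmp13 was at least 29.2-fold and Ptgs2, a prostaglandin-forming cyclooxygenase, at least 13.6-fold higher, and the chemokine Cxcl1 rose by 3.20 ± 0.52 (SE). Of 13 tested genes that respond to IL-4 and IL-13, 3 were higher and none lower (23.1% called; median 0.69), led by the chemokine Ccl17 at 5.18 ± 0.77 (SE). With the slide row as a block the 3 counts of higher genes were 6, 7 and 0, and none was lower. With spike-in scaling 9, 5 and 2 were higher and 1, 0 and 2 lower. Quantile normalization gave 7 higher and 2 lower in the list for IL-1 and IL-17. Genes measured in 1 group alone left the medians of these 6 lists as given when set at their bound.

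**Figure D4:**
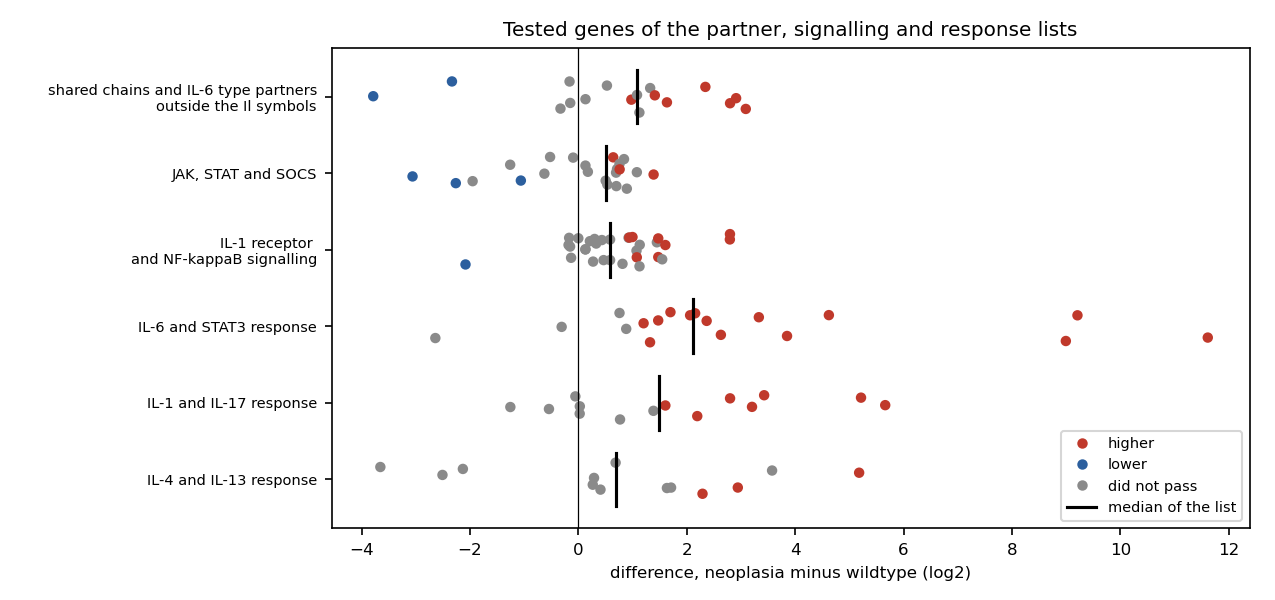
Difference between neoplasia and wildtype (log2, horizontal axis) for each tested gene of 6 lists; red points are higher, blue lower and grey did not pass, a black bar is the median of the list, and the vertical scatter has no meaning. The response list for IL-6 and Stat3 has 14 of 18 genes higher and a median of 2.11, while 17.0% of all features were higher. The lists were chosen with earlier results of these data known.

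The RNA of cell type markers also differed between the groups. The summed signal of 10 tested macrophage markers was 32.8 to 38.8 in wildtype and 91.8 to 182 in neoplasia, with 8 of 10 higher. That of 8 neutrophil markers was 108 to 121 and 114 to 145, with 4 of 8 higher, 1 lower and a median difference of 1.49, against 1.54 for the macrophage markers. All 8 oocyte markers and all 6 luteal markers were lower, and 5 of 8 granulosa cell markers. All 5 red cell markers were higher. Over all features 17.0% were higher and 13.4% lower. What these shifts contribute to the interleukin results was not tested. Every neoplasia array had fewer probes above background (29332 to 32920) than every wildtype array (33737 to 34147), with the 75th percentile signal at 460 to 515 in wildtype and 307 to 426 in neoplasia.

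**Figure D5:**
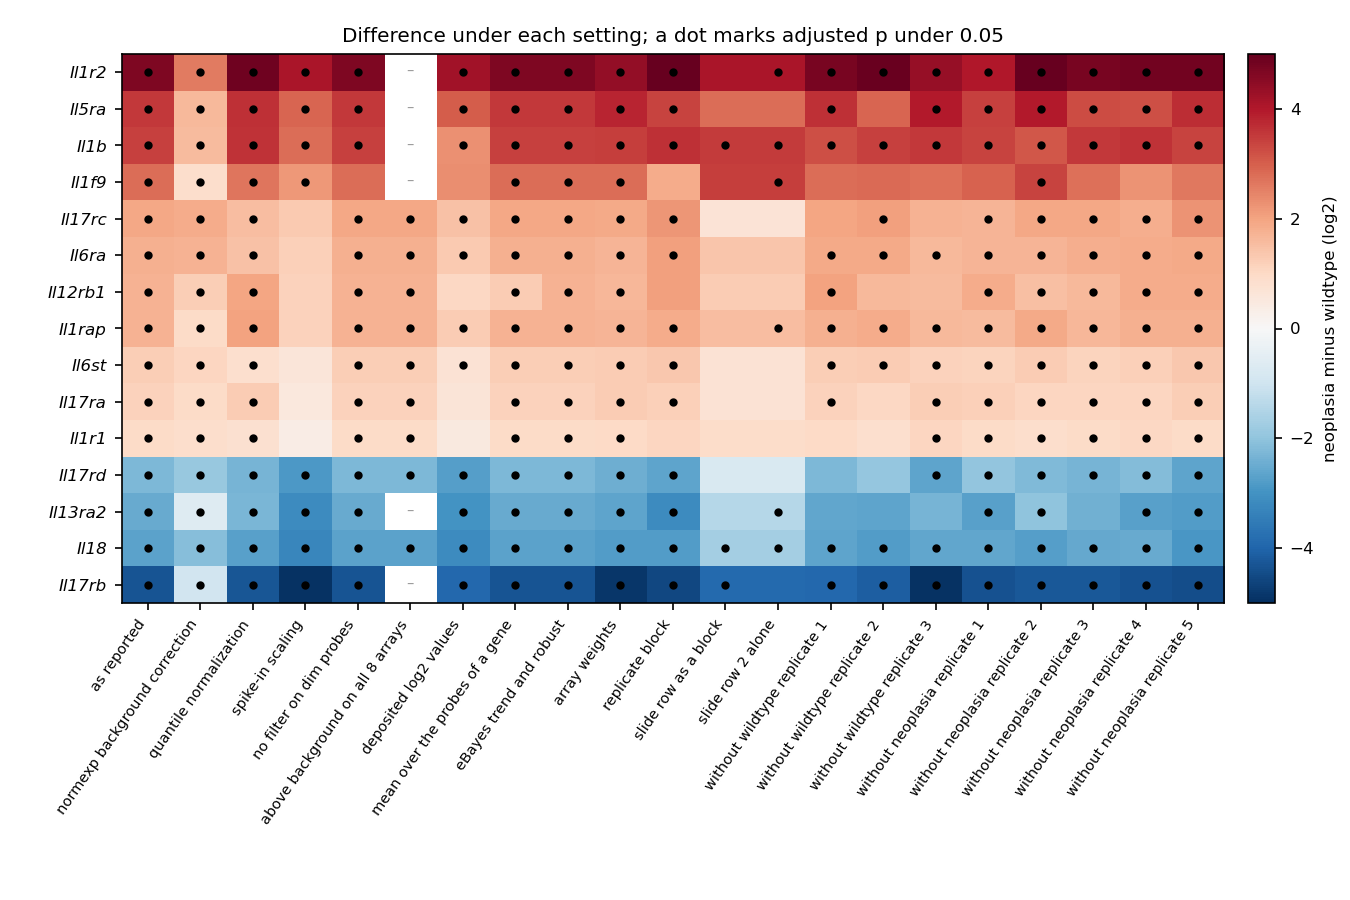
Difference between neoplasia and wildtype (colour, log2) for the 15 called genes (vertical axis) under each processing setting (horizontal axis); a black dot marks an adjusted p under 0.05 and a dash a gene that the setting did not test. No gene changes sign; Il1b and Il18 have a dot wherever they were tested, and the column for the slide row as a block has 3 dots.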

How the data were processed

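The 8 arrays were read with Agilent Feature Extraction 11.0.1.1 on a grid annotated to mm9, according to their headers. The deposited scanner files give processed signal intensity per spot, the software's own final value, per the file headers. In addition, the deposited value table holds log2 values that matched log2 of the mean processed signal per feature name within 5.0e-05, with no scaling between arrays; the submitters' processing notes name Partek. Here, log2 of the processed signal minus each array's 75th percentile was used, spots of a probe were averaged, and the tested probe with the highest mean stood for a gene. Accessions matched RefSeq symbols for 47.7% of probes. limma 3.58.1 in R 4.3.3 was run with no covariate and 6 residual degrees of freedom, and the code was tested on simulated data. Normexp correction (offset 50, run on the median foreground), quantile and spike-in scaling (6 of 10 spike-in probes), filters, deposited values, probe choice, array weights, replicate and slide row blocks, and leaving out each array were the alternatives. Each probe alone was added after seeing the data. Genes named are those called plus families listed by role; a few others were chosen after their values were seen. The genes and lists were chosen with earlier results of these data known. The number of arrays limits the precision. No interleukin spot was saturated.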

Additional observations from a re-analysis of the deposited data

Results flagged for a closer look

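Il15, which encodes a T and NK cell growth factor, stood apart in 1 neoplasm. Its value in neoplasia 5 was -2.45, while the nearest of the other 4 neoplasms was at -3.95, a gap of 0.778 of the group's range against a limit of 0.71 for 5 samples. The ovaries ran from -3.80 to -3.04. Among 32 genes examined this way, chance alone would mark about 1 in 20, and 1 was marked.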

How the results depend on the processing

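The number of called interleukin genes depended on the setting, while the sign of the 15 calls did not change in any alternative run. Against 11 higher and 4 lower, spike-in scaling gave 4 and 6 (4939 features called in all, against 7671), the filter on all 8 arrays 7 and 2, the deposited log2 values 7 and 5, array weights 20 and 6 (13034), an adjusted p of 0.01 5 and 2 (2566), and slide row 2 alone 11 and 2. The slide row as a block gave 2 and 2 (1534). The share of calls that were higher was 73.3% as reported, 40.0% with spike-in scaling and 58.3% with the deposited values, and the median of all features was 0.14, -0.47 and -0.34. Neoplasia 1 had a mean spike-in signal of 8.05, against 9.13 to 9.84 elsewhere. With 1 array left out, 6 to 14 were higher and 2 to 7 lower, with 2840 to 9998 features called; the ends came without wildtype 1 (2840 features, 2 lower), wildtype 2 (6 higher, 2 lower), neoplasia 2 (14 higher) and neoplasia 5 (7 lower). Without wildtype 3, 4075 features were called. Of the 15 calls, 7 were kept with every array left out in turn: Il17rb, Il18, Il1b, Il1r2, Il1rap, Il6ra and Il6st.

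The replicate numbers are not known to pair the samples: same-numbered samples had correlations of deviations of -0.05, -0.03 and -0.00. With the replicate block, 8 were higher and 4 lower (4704 features called), Il11 was at -0.17, Il11ra1 at 0.019 and Il7r at -1.03.

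Reversed signs occurred in genes that were not called. With normexp correction Il10rb was at -0.047, Il15 at 0.19 and Il17re at 0.20. Il10rb was at -0.16 with quantile normalization. Spike-in scaling put Il10rb at -0.53, Il11 at -0.37, Il18bp at -0.11, Il4ra at -0.32 and Il7r at -0.43, and the deposited values put Il10rb at -0.40, Il11 at -0.24, Il4ra at -0.10 and Il7r at -0.30. Array weights put Il7r at -0.61. In slide row 2, alone or as a block, Il11ra1 was at 0.048, Il13ra1 at 1.497, Il15 at 0.95, Il17re at 0.33 and Il33 at 1.84. With 1 array left out, values ran from -0.78 to 0.96 for Il17re, -0.084 to 0.11 for Il11ra1, -0.50 to 0.57 for Il7r, -0.83 to 0.22 for Il18r1, -0.012 to 0.19 for Il10rb and -0.27 to 0.44 for Il11. The cause was not tested. Signal over background limits the dim genes: on each array the lowest log2 signal called above background lay between -5.81 and -4.36.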
